A study of Homo sapiens with 4 samples.

Results

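To examine whether the genes of the cytosolic ribosome were recovered by the HA antibody in K562 cells, the 91 protein-coding genes whose RefSeq symbol names a ribosomal protein (RPL or RPS and a digit, RPSA, RPLP0, RPLP1 or RPLP2, without RPS6K genes and pseudogenes) were taken from 20033 protein-coding genes placed on the nuclear chromosomes. Of these, 77 were core genes of the ribosome, 31 for proteins of the small subunit and 46 for proteins of the large subunit. A further 10 were paralogs such as RPL3L and RPL39L, and 3 were readthrough genes that join a ribosomal protein gene to its neighbour (RPS10-NUDT3, RPL17-C18orf32 and RPL36A-HNRNPH2). The last, RPS19BP1, encodes a partner of a ribosomal protein and not a ribosomal protein itself, and entered by its symbol.

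ChIP-seq was done with an HA-tag antibody on cross-linked chromatin of K562, a human chronic myeloid leukemia line. The cells overexpressed HA-PHF6 or, as the control, HA, and were otherwise untreated, and each ChIP library was sequenced beside its own input. There was 1 ChIP library per condition and so no replicate, and the only label that separates the pair is HA or WT in the title, which does not settle where HA-PHF6 was expressed. They are therefore named by their labels. Peaks were called in each library against its input at a p-value of 0.005, on 16132466 ChIP tags in the HA-labelled library and 22257947 in the WT-labelled library. The lists held 12662 and 6874 peaks. The genome-wide background was 1.05 and 1.68 tags, and the q-value, the p-value adjusted by the caller for multiple testing, was under 0.05 for 5.08% and 6.24% of the peaks. The peak lists hold no expression values, so the cell line was not checked by its markers.

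The cytosolic ribosome is built from ribosomal RNA and one copy of nearly every ribosomal protein, and the genes of these proteins are among the most actively transcribed of a growing cell. They are short, start at a pyrimidine tract that places their mRNAs under common translational control, and many host small nucleolar RNAs (snoRNAs) in their introns. Several free ribosomal proteins, RPL5 and RPL11 among them, bind MDM2 and so connect the ribosome to P53. PHF6 is a nuclear and nucleolar protein with PHD-like zinc fingers.

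Most ribosomal protein genes held no peak. In the HA-labelled library, 6 of 91 (6.59%, 95% Wilson confidence interval 3.06% to 13.6%) overlapped a peak by at least 1 bp, and in the WT-labelled library 4 of 91 (4.4%, 1.72% to 10.8%). Among all other protein-coding genes the shares were 18.1% and 8.59%. Those genes are longer, with a median of 24297.5 bp against 5127 bp, and a longer gene meets a peak more often. When each ribosomal protein gene was set beside the other protein-coding genes of like length (from 0.8 times its own length to the inverse of that), the average share was 5.57% in the HA-labelled library and 2.06% in the WT-labelled library. These shares come to 5.07 and 1.87 genes of 91, and both lie within the intervals above. The intervals cover counting over genes only, since the genes are not replicates of a condition.

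The 77 core genes gave the same picture in the HA-labelled library, where 3 (3.90%, 1.33% to 10.8%) held a peak beside 4.91% of genes of like length. In the WT-labelled library 4 (5.19%, 2.04% to 12.6%) held one beside 1.72%, a share just under the interval. One of these 4 was RPS29, whose peak lies on an RNA gene inside it. In a further count RPS29 stayed among the 77 genes but its peak was not counted. The core share was then 2.60% (0.715% to 8.98%) in the HA-labelled library and 3.90% (1.33% to 10.8%) in the WT-labelled library. The like-length shares lay within both intervals. They still count peaks over nested genes, so core genes and genes of like length were not treated alike. By subunit, 2 of 31 small-subunit and 1 of 46 large-subunit core genes held a peak labelled HA, and 1 and 3 held a peak labelled WT. The small-subunit counts include RPS29 in both libraries. No like-length share was computed per subunit, so these counts do not show a difference between subunits. No core gene for the stalk proteins (RPLP0, RPLP1 and RPLP2) held one, nor did RPL11, RPS6 or RPS19.

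Among other protein-coding genes the share rose with length. Under 4 kb, 1 of 30 ribosomal protein genes held a peak labelled HA and 0 of 30 a peak labelled WT, beside 2.71% and 1.28% of other genes. From 4 to under 8 kb the counts were 0 and 2 of 36, beside 4.74% and 1.44%. From 8 to under 30 kb they were 4 and 2 of 24, beside 8.62% and 3.27%. The single longer gene, the readthrough RPS10-NUDT3 of 138876 bp, held a peak labelled HA, as did 32.6% of other genes of 30 kb and over.

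In all, 9 of the 91 genes held a peak in either list and 82 in neither. RPS29 was the 1 gene with a peak in both, which is 16.7% of those labelled HA and 25% of those labelled WT. Among the other protein-coding genes, 807 held a peak in both, 22.4% of those labelled HA and 47.1% of those labelled WT. This overlap was not matched for gene length. Of the other genes with a peak, 2884 of 3607 labelled HA and 1441 of 1714 labelled WT were of 30 kb and over.

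The strongest peaks were those at RPS29, which encodes a zinc-binding protein of the small subunit. At the summit 18 tags piled up in the HA-labelled library (exact 95% Poisson interval 10.7 to 28.4) over a local background of 2.38, and 108 tags in the WT-labelled library (88.6 to 130) over 5.09. The fold enrichment over the local background was 5.62 and 17.9, and the −log10 q 6.01 and 94.1. The peak labelled WT, at a −log10 p of 101.34, ranked 2 of its list, and the peak labelled HA, at 10.90, ranked 255 of its list. Relative to the genome-wide background of each library the pileup was 17.2 times labelled HA and 64.3 times labelled WT. Their summits lay 11947 and 11984 bp downstream of the RPS29 start used here. The gene runs over 27723 bp on chromosome 14 from 49570988 to 49598710, and starts further inside it were not examined. The peak labelled HA spanned 49586627 to 49586868 and the peak labelled WT 49586525 to 49586986. They lie on RN7SL1, from 49586580 to 49586878, the gene of the RNA of the signal recognition particle, which is nested in the RPS29 interval and is transcribed by RNA polymerase III. Reads of RPS29 and RN7SL1 chromatin cannot be told apart at this place. No other peak lay in RPS29 in either list.

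**Figure D1:**
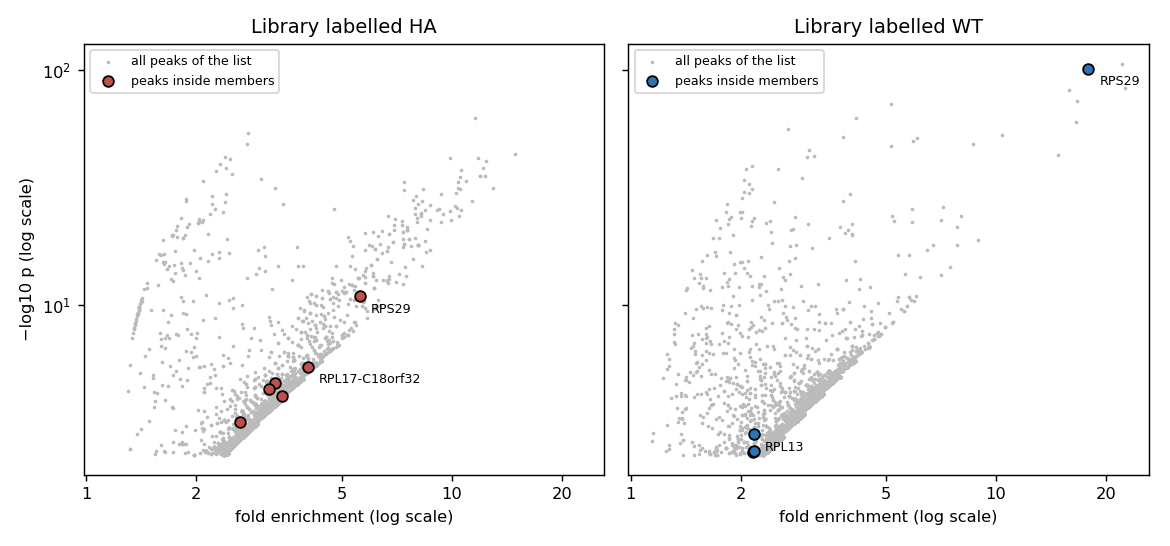
Fold enrichment against −log10 p, both on log scales, for every peak of each list (grey) and for the peaks inside ribosomal protein genes (coloured). The RPS29 peaks, at 5.62 and 17.9-fold, are the highest of these genes. By −log10 p the RPL17-C18orf32 peak lies above 94.3% of its list, and RPL5 and RPL13A above only 2.52% and 3.70% of theirs.

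Apart from RPS29 the peaks were weak. Summits labelled HA held 7 to 11 tags, with a deposited fold enrichment (1 added to tags and to background) of 2.64 to 4.05. Summits labelled WT held 9 to 13 tags, with 2.16 to 2.18. The −log10 q reached 1.12 at most in the HA-labelled library and was 0, a q-value of 1, for the 3 labelled WT. At a q-value under 0.05 only RPS29 was left in each list, 1 of 91 genes (1.1%, 0.194% to 5.96%), beside 0.399% and 0.113% of genes of like length, the latter under the interval. With peaks of 3-fold or more 5 genes were left labelled HA (5.49%, 2.37% to 12.2%) beside 2.25%, also under the interval, and 1 labelled WT beside 0.748%. The 5 were RPS3, RPS29, the paralog RPL3L and the readthrough genes RPS10-NUDT3 and RPL17-C18orf32. The RPS29 peak lay on RN7SL1, and the peaks in the readthrough genes lay outside RPS10 and RPL17.

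By the starts used here, a peak at the 5′ end was found at RPS3 and RPL12, both in the HA-labelled library. RPS3 encodes a small-subunit protein at the mRNA entry site, and RPL12 a large-subunit protein at the base of the stalk. The RPS3 peak, on chromosome 11 from 75399426 to 75399729, ran from 92 bp before to 211 bp after the annotated start, with its summit 89 bp after it. There 11 tags (5.49 to 19.7) stood over a background of 2.80, a fold enrichment of 3.16 with a −log10 p of 4.42, higher than 86.7% of the list. The RPL12 peak, on chromosome 9 from 127451164 to 127451384, ran from 22 to 242 bp after the start, with its summit 182 bp after it. Its 9 tags (4.12 to 17.1) over 2.79 gave a fold enrichment of 2.64 and a −log10 p of 3.19, higher than 58.8% of the list. At both places the background was about 2.7 times the genome-wide one (2.68 and 2.67 times). The library labelled WT had no peak nearer than 836 kb to the first and 80.8 kb to the second.

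The promoter sequences show where these peaks fall. RefSeq windows of GRCh38.p14, from 250 bases before to 50 bases after a start, were at hand for 72 of the 91 genes, with 89 starts. The windows of RPS3 (chr11:75399268-75399567, + strand) and RPL12 (chr9:127451357-127451656, − strand) are printed 5′ to 3′, with the 142 and 28 bases inside the peak in capitals.
RPS3: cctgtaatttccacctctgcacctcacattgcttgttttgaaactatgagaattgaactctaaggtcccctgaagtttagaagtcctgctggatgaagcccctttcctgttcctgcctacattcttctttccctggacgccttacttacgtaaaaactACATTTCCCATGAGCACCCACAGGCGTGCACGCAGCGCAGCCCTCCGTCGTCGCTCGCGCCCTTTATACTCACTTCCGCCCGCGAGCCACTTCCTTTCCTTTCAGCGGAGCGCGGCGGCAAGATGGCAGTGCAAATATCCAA
RPL12: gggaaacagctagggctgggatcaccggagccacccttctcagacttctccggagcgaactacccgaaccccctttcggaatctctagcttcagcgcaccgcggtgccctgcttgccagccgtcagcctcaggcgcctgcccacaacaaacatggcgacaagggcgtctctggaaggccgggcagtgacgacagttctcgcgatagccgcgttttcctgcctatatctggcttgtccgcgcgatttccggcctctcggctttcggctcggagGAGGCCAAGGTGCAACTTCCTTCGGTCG
In RPS3 the peak takes in the start and the pyrimidine run over it, and in RPL12 it begins behind the start and extends into the gene.

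Of the 72 genes with a window, these 2 (2.78%, 0.765% to 9.57%) held a peak in it labelled HA, beside 1.99% of the other protein-coding genes with a window. In the WT-labelled library 0 of 72 did, which allows a share of up to 4.17%, beside 0.203%. Within 1 kb of a start the counts were 2 labelled HA, beside 3.89% of other genes, and 2 labelled WT, at RPL13 and RPL13A, beside 0.736%. Each count is 2.78% of 72 genes (0.765% to 9.57%), and the share of other genes labelled WT lay just under that interval. For windows and for the 1 kb margin, a gene counted when any of its starts had a peak. The shares were not matched for the number of starts per gene. RPS29 entered these counts by the start used here, 11947 and 11984 bp from its summits. With starts further inside it not examined, the counts do not settle whether its peaks lie near a start.

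The starts themselves carry the pyrimidine tract of their class. A run of at least 5 pyrimidines (C or T) lay over the annotated start in 54 of the 89 windows (60.7%), against 9.60% of all 35116 windows in the table, and a run of at least 8 in 55.1% against 4.72%. On the strand of the gene CTTTCC was present in 41.6% of the gene windows and 13.9% of all windows, CTTTTC in 24.7% and 11.5%, and CCTTTC in 28.1% and 12.3%. These 3 words can overlap each other in one tract. TATAAA was present in 4.49% against 7.33%. On either strand CCGGAAG was present in 31.5% against 10.3%, and GGAAG, which it contains, in 91% against 71.9%. The median GC content was 58.7% in both. Starts of core genes with a peak are printed from 10 bases before the start to 20 bases from it, with the pyrimidine run over the start in capitals.
RPS3, chr11:75399508-75399537: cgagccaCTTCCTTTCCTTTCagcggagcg
RPL12, chr9:127451387-127451416: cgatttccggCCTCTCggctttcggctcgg
RPL13, second start, chr16:89560672-89560701: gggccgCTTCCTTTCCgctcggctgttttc
RPL13A, chr19:49487598-49487627: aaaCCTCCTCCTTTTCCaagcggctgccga
RPS29, chr14:49598691-49598720: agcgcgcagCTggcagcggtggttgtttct
The run has 14 bases in RPS3 and RPL13A, 10 at the second of 3 RPL13 starts (4 and 0 at the others), 6 in RPL12 and 2 at the RPS29 start used here. The RPS29 summits lay 11947 and 11984 bp from that start, and starts nearer to them were not examined. Apart from RPS29, the runs at these genes ranged from 14 bases down to 6, with 4 and 0 at the other RPL13 starts. The windows show sequence only. A window of RPL5 was not used here.

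RPL13 and RPL13A both encode large-subunit proteins and held a peak labelled WT inside the gene. The RPL13 peak, on chromosome 16 from 89561540 to 89562043, had its summit 1312 bp after the first start, with 13 tags (6.92 to 22.2) over a background of 5.44, a fold enrichment of 2.18 and a −log10 p of 2.82. It began 39 bp beyond SNORD68, a snoRNA gene hosted by RPL13, and did not overlap it. The RPL13A peak, on chromosome 19 from 49488422 to 49488853, had its summit 926 bp after the start, with 9 tags over 3.60, a fold enrichment of 2.17 and a −log10 p of 2.39. RPL5, whose protein joins 5S ribosomal RNA and RPL11, held the last peak labelled WT, on chromosome 1 from 92834941 to 92835223. Its 9 tags over 3.62 gave a fold enrichment of 2.16 and a −log10 p of 2.38, and the place also lies in the overlapping gene DIPK1A. The −log10 p was higher than that of only 2.52% of the list at RPL5, 3.70% at RPL13A and 29.6% at RPL13. The local background at the 3 places was 2.14 to 3.24 times the genome-wide one, and its part in the calls was not tested.

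The other peaks labelled HA lay in a paralog and in readthrough genes, there outside RPS10 and RPL17. RPL3L, the RPL3 paralog of striated muscle, held a peak on chromosome 16 from 1948234 to 1948434, with 7 tags (2.81 to 14.4) over 1.33 and a fold enrichment of 3.43. The peak in RPS10-NUDT3, on chromosome 6 from 34324046 to 34324246, had 11 tags over 2.65 and a fold enrichment of 3.29. It lies within NUDT3, from 34279679 to 34392669, and outside RPS10, which runs from 34417454 to 34426069. The peak in RPL17-C18orf32, on chromosome 18 from 49487196 to 49487407, had 9 tags over 1.47, a −log10 q of 1.12 and a fold enrichment of 4.05. It overlaps the edge of C18orf32 and the microRNA gene MIR1539 and lies 1074 bp outside RPL17. Its summit, at 49487293, lies beyond C18orf32, which runs from 49477243 to 49487234. Neither RPS10 nor RPL17 itself held a peak. When peaks over another annotated gene were left out, RPS3, RPL12 and RPL3L remained in the HA-labelled library and RPL13 and RPL13A in the WT-labelled library, 3 and 2 of 91 genes.

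**Figure D2:**
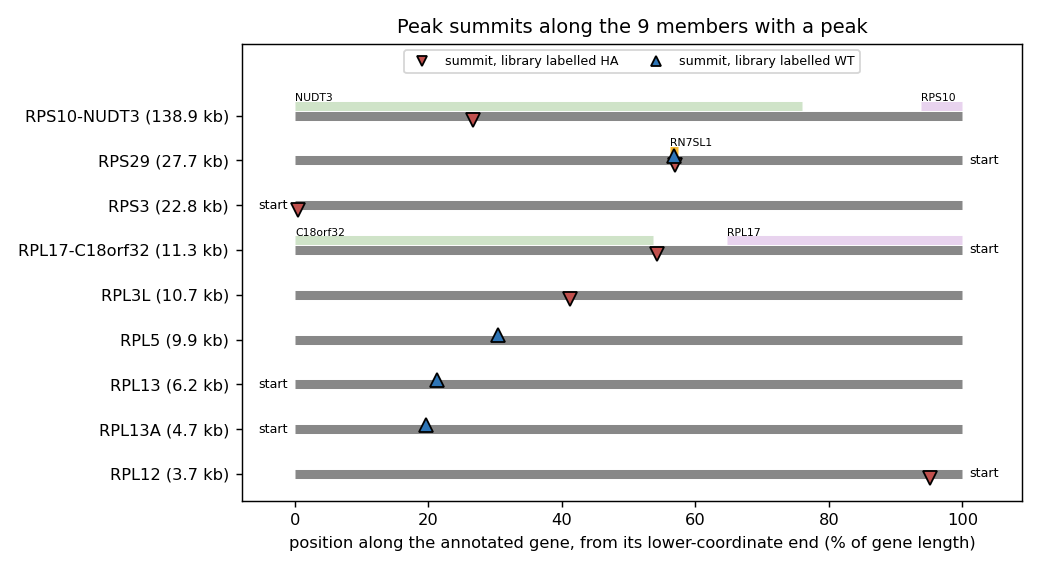
Peak summits along the 9 ribosomal protein genes with a peak, as a percentage of gene length from the lower-coordinate end, with the annotated start marked where the promoter table gives it and with RN7SL1 and both parts of the 2 readthrough genes as coloured bars. The RPS29 summits of both libraries sit on RN7SL1, RPS3 and RPL12 have theirs near the start, and the summits in the readthrough genes lie outside RPS10 and RPL17.

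The depth limits what the absence of a peak can show. Scaled by the genome-wide backgrounds, the 9, 9 and 13 tags at RPL5, RPL13A and RPL13 labelled WT correspond to 5.60, 5.60 and 8.09 tags in the smaller library labelled HA, where at equally scaled backgrounds 7, 7 and 9 tags would be needed at the cutoff of 0.005. The intervals of the scaled tags (2.56 to 10.6 at RPL5 and RPL13A, 4.31 to 13.8 at RPL13) span the tags needed at all 3 genes. In the other direction, the 6 peaks labelled HA correspond to 11.2 to 28.9 tags in the WT-labelled library, where 7 to 11 would be needed. These are projections of single values from peaks selected for passing, and the intervals of the scaled tags span the tags needed at 5 of the 6, all but RPS29 (17.1 to 45.7 tags against 10 needed). With single libraries and peaks of this size, whether the genes differ between the libraries was not tested.

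Distances to the nearest peak were close to those of genes of like length. The median distance from a ribosomal protein gene to the nearest peak was 68.2 kb (quartiles 26.2 and 144 kb) in the HA-labelled library and 188 kb (78.9 and 546 kb) in the WT-labelled library. With other genes weighted to the same lengths it was 71.7 kb and 198 kb. Within 5 kb of the gene a peak was found for 8 genes (8.79%) labelled HA and 5 (5.49%) labelled WT, beside 10.3% and 4.01%. The genes added by this margin were RPL17 and RPL7L1 labelled HA and RPL22 labelled WT. The RPL7L1 peak lay 1793 bp upstream, with 9 tags and a fold enrichment of 2.63, and the RPL22 peak 709 bp beyond the gene's far end, with 9 tags and a fold enrichment of 2.69. RPL13 had a further peak labelled WT 4864 bp upstream, in SPG7, with 12 tags and a fold enrichment of 3.74. Counted over the covered length, the ribosomal protein genes held 7.80 peaks per Mb labelled HA and 5.20 labelled WT, on 6 and 4 peaks, and other protein-coding genes 4.32 and 2.1. For the core genes alone the order of the libraries turned, with 6.16 labelled HA and 8.21 labelled WT, on 3 and 4 peaks. These densities were not matched for gene length. By the like-length shares, 5.07 (HA) and 1.87 (WT) of all 91 genes would hold a peak. For the 77 core genes the numbers were 3.78 and 1.33.

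Genes with related roles were counted in the same way. The 60 snoRNA genes hosted by 30 of the ribosomal protein genes held 0 peaks in either library, which allows a share of up to 5%, beside 0% labelled HA and 0.0335% labelled WT of other snoRNA genes of like length. Of 77 genes for proteins of the mitochondrial ribosome, 5 (6.49%, 2.81% to 14.3%) held a peak labelled HA, beside 8.68% of genes of like length. The strongest were MRPL21 and MRPS28 (11 tags and 2.67-fold each) and MRPS9 (8 tags, 2.78-fold). In the WT-labelled library 0 of 77 did, which allows up to 3.90%, beside 3.57%. Of 36 ribosome biogenesis genes, 5 (13.9%, 6.08% to 28.7%) held a peak labelled HA, beside 12.9%, and 2 (5.56%, 1.54% to 18.1%) a peak labelled WT, beside 5.53%. Those labelled HA were led by EFL1 (8 tags, 3.88-fold), WDR12 (6 tags, 3.42-fold) and TCOF1 (5 tags, 2.93-fold), and those labelled WT were POLR1A (7 tags, 2.98-fold), a subunit of RNA polymerase I, and UTP4 (8 tags, 2.20-fold). For each of these lists with a peak the like-length share lay within the interval.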

How the data were processed

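Peak lists of 2 ChIP libraries were analysed, each called by the authors against its own input. The authors aligned reads with BWA 0.7.12, per the labels, and called peaks with MACS 2.1.0.20150420, per the file headers, on reads that the headers name as unique and deduplicated, in each library separately, without a fragment model, with an extension of 201 bp (labelled HA) or 234 bp (labelled WT) and splitting at summits. The signal deposited for each peak is the pileup of extended tags at the summit. The deposited fold enrichment is the ratio of pileup to local input background, with 1 added to both. Significance was deposited as −log10 p-values and −log10 q-values, the latter although the headers say that none would be computed, and peak lengths are in bp. Unique mapping can remove reads from exons that resemble the genes' 1971 named pseudogenes (median 17 per core gene), and this was not tested. The files name no build. Their chromosome and contig names are those of GRCh38, and genes and starts came from RefSeq tables of GRCh38.p14. Exons were not analysed here.

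The background was computed from pileup and fold enrichment, and the Poisson p recomputed from it was within 0.05 of the deposited −log10 p for 100% of peaks. Shares have 95% Wilson intervals, and 0 is given the limit of 3 counts. Tags are not independent molecules, so intervals cover counting error only. Genes of like length were averaged per ribosomal protein gene. No test between libraries was possible with 1 library per condition. Named genes were all ribosomal protein genes with a peak inside or within 5 kb, and of related lists up to 3 per library by −log10 p. Members and lists were chosen with earlier results of these data known. The overlap of genes with peaks, the computed background, the like-length share, the merging of peaks and the added margins were tested on simulated data. The other steps were not. The tools were Python 3.11.15 with scipy 1.17.1, numpy 2.4.6, matplotlib 3.10.9 and pandas 2.3.3. Promoter windows were matched by gene identifier and chromosome. Some items are not reported here.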

Additional observations from a re-analysis of the deposited data

How the results depend on the processing

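No paired analysis was possible because there is only 1 ChIP library for HA and 1 for WT. All alternatives were chosen with earlier results of these data known, and leaving out peaks over another annotated gene was added after seeing the values. The stricter settings keep fewer peaks by construction, and otherwise the cause of a move was not tested. Peaks of as few as 4 tags (labelled HA) and 6 tags (labelled WT) were called.

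The ribosomal protein genes with a peak, 6 labelled HA and 4 labelled WT, became 1 and 1 at a q-value under 0.05, 2 and 1 among the 1000 peaks with the highest −log10 p of each list, and 3 and 2 without peaks over another gene, where the peaks at these genes were also 3 and 2. With peaks of 3-fold or more the counts were 5 and 1, and without paralogs and readthrough genes the count labelled HA was 3. The 0 promoter windows with a peak labelled WT became 2 within 1 kb of the start.

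The like-length share, 5.57% labelled HA and 2.06% labelled WT, was 0.399% and 0.113% at a q-value under 0.05, 0.734% and 0.287% among the top 1000, 2.25% and 0.748% with peaks of 3-fold or more, 4.10% and 1.62% without peaks over another gene, 7% and 2.45% with 1 kb and 10.3% and 4.01% with 5 kb added. Labelled HA it was 3.47% when the longer list was cut to the length of the shorter, 4.90% without paralogs and readthrough genes and 5% with the summit inside the gene. The HA count stayed at 6 in the cut list. The 1 gene with peaks in both lists, RPS29, became 0 without peaks over another gene and was 1 under the other alternatives run on it.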

Other observations

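The pseudogenes of ribosomal protein genes, mostly intron-less copies of their mRNAs, rarely held a peak. Of 1971, 11 (0.558%, 95% Wilson confidence interval 0.312% to 0.997%) overlapped a peak labelled HA, beside 0.512% of other pseudogenes of like length, and 7 (0.355%, 0.172% to 0.731%) a peak labelled WT, beside 0.244%. The strongest labelled HA were RPL21P78 (7 tags, fold enrichment 3.91), RPS25P7 (7 tags, 3.58) and RPL23AP87 (9 tags, 3.23), and labelled WT RPS4XP13 (11 tags, 3.47), RPL5P14 (8 tags, 3.21) and RPL35AP34 (7 tags, 2.75). RPL21 has the most named pseudogenes of any core gene, 137, and itself held no peak.

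Of 71 genes for initiation and elongation factors, which bring tRNAs to the ribosome and move it along the mRNA, 8 (11.3%, 5.82% to 20.7%) held a peak labelled HA, beside 13.9% of genes of like length, and 4 (5.63%, 2.21% to 13.6%) a peak labelled WT, beside 6.11%. EEFSEC, the elongation factor for selenocysteine, held a peak labelled HA of 12 tags over a background of 1.09, a fold enrichment of 6.21 and a −log10 p of 9.73. Its peak labelled WT, of 8 tags over 1.68 and a fold enrichment of 3.36, lay elsewhere in the gene. EIF4G3 (9 tags, 3.22) and EEF1A2 (7 tags, 3.34) followed labelled HA, and EEF2 (11 tags, 3.29) and EIF4E1B (7 tags, 2.62) labelled WT.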
